A study of Mus musculus with 2 samples.

Results

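The 10 genes described here encode subunits of the transcription factor NF-kappaB and other proteins of its feedback, several of which restrain its activity. They were chosen by symbol, and all 10 were found in both libraries among the 31053 genes of the files. They are the subunits Nfkb1 (ENSMUSG00000028163), Nfkb2 (ENSMUSG00000025225), Relb (ENSMUSG00000002983) and Rel (ENSMUSG00000020275), the IkappaB family genes Nfkbia (ENSMUSG00000021025), Nfkbiz (ENSMUSG00000035356) and Bcl3 (ENSMUSG00000053175), the ubiquitin enzymes Tnfaip3 (ENSMUSG00000019850) and Birc3 (ENSMUSG00000032000), and the mRNA decay gene Zfp36 (ENSMUSG00000044786).

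The series addresses what tetrahydrocannabinol (THC), the main psychoactive compound of cannabis, does to cells of the mouse colon. It holds 1 single-cell RNA library from wild-type C57BL/6 mice given THC at 10 mg/kg and 1 library from wild-type C57BL/6 mice given the vehicle. Colons of both groups were treated with EDTA to loosen the epithelium, then with collagenase D, DNAse and Dispase, and the lamina propria cells were enriched on Percoll before loading on a 10x Genomics 5′ kit. The sources used here do not give the number, sex or age of the mice, how and how often they were dosed, or what the vehicle was. Each group is thus a single library without replicates, no difference was tested, and every interval below covers counting error only.

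NF-kappaB dimers wait in the cytoplasm, bound by IkappaB proteins such as the product of Nfkbia. Receptors for microbial products, TNF and interleukin-1 activate a kinase complex that marks IkappaB for destruction, and the freed dimers enter the nucleus. There they switch on inflammatory genes and also Nfkbia, Tnfaip3, Birc3 and their own subunits, which closes a feedback loop. In the colon the pathway serves both the response to microbes and the survival of the epithelium.

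The filters kept 395 THC cells with 4407754 unique molecular identifiers (UMIs, each 1 counted RNA molecule) and 628 vehicle cells with 5663636 UMIs, and no kept cells of the libraries shared a barcode. The median cell held 8529 UMIs in the THC library and 7101.5 in the vehicle library. Clustering without the 10 genes gave 12 classes with the markers of a colon cell type, called "-like" because their names were rebuilt from markers. The fibroblast-like class held 98 THC and 158 vehicle cells, and the epithelial-like class held 80 THC and 100 vehicle cells. These classes alone had at least 50 cells in each library. Levels are given as CPM: the UMIs of a gene, summed over the cells of a class in 1 library, as a share of all their UMIs and scaled to the same total in every class. Barcodes with 1 to 50 UMIs, which hold mostly free RNA, could be read in the THC library only. In them Nfkbia stood at 784 CPM, Zfp36 at 1035 CPM, Tnfaip3 at 124 CPM and Nfkbiz at 119 CPM, and the other 6 genes lay between 26.1 and 48.5 CPM.

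Sequences are shown for the members whose promoter window holds GGANNTTCC, a form of the core of an NF-kappaB binding motif. Such sites were chosen since NF-kappaB switches on several of these genes in its feedback loop. RefSeq windows of 300 bases on GRCm38.p6, from 250 before to 50 after a start site, matched 7 of the 10 members through 10 windows, and Nfkb1, Nfkbiz and Relb had no entry. The letters GGANNTTCC, searched on both strands, were found in 4 of these 10 windows, which belong to 3 members, and in 4.26% of all 32851 windows. Other forms of the motif were not searched, so the remaining windows may still hold a site. The 250 bases before the Nfkbia start site (chr12:55492648-55492897, minus strand) hold matches that begin 178 and 29 bases before the start. The Tnfaip3 match, shown with 10 bases on each side, begins 24 bases before the start. The Nfkb2 match shown lies between a pair of annotated start sites, so it stands in the windows of both. Of these, the window chr19:46305445-46305744 holds a further match on the other strand. Another Nfkb2 window, chr19:46304487-46304786, and another Tnfaip3 window, chr10:19011914-19012213, hold no match. The matched letters are in capitals.
Nfkbia: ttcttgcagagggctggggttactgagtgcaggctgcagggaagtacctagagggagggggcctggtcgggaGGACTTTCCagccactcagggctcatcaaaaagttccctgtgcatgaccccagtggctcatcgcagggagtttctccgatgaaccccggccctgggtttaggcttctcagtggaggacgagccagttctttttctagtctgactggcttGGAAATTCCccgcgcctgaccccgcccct
Tnfaip3 (chr10:19015416-19015444, minus strand): tcacgtgactGGAATTTCCatcggaaatc
Nfkb2 (chr19:46305696-46305724, plus strand): ggtattttcgGGACTTTCCtaagcagcac
A match describes these letters and does not show that the site was bound in these cells.

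The subunit genes were highest in immune classes. Nfkb1 encodes p105, the precursor of the p50 subunit. It stood at 380 CPM in THC and 427 CPM in vehicle T and innate lymphoid-like cells, and at 89.8 CPM in THC and 68.6 CPM in vehicle epithelial-like cells. Of the classes with at least 20 cells in a library, the smooth muscle-like class was lowest, with 41.4 CPM in the THC and 28.0 CPM in the vehicle library. In the vehicle library, where 36 macrophage-like cells could be read, that class held 367 CPM of Nfkb1, and its interval overlapped that of the T and innate lymphoid-like class.

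Nfkb2 encodes p100, the precursor of p52, and Relb encodes the partner of p52 in the alternative pathway. Nfkb2 reached 147 CPM in THC and 196 CPM in vehicle T and innate lymphoid-like cells, and Relb 181 CPM in THC and 159 CPM in vehicle cells of that class. Fibroblast-like cells held 44.8 CPM of Nfkb2 in the THC and 43.9 CPM in the vehicle library, which was 2.77 times the smooth muscle-like level in the THC and 3.14 times in the vehicle library. Over the 14 class and library points of at least 20 cells, log2 levels of Nfkb2 and Relb had a Pearson r of 0.93, those of Nfkb1 and Nfkb2 0.91, and those of Nfkb1 and Relb 0.89. These values describe how the genes were spread over cell classes, since most classes give a THC and a vehicle point that are not independent.

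Rel, the c-Rel subunit known for its part in lymphocyte activation, had another order. B-like cells held 652 CPM in the THC library (95% interval 516 to 812) and 603 CPM in the vehicle library (509 to 708). Their intervals lay above those of every other class of at least 20 cells in the same library. T and innate lymphoid-like cells followed in the THC library with 225 CPM, and macrophage-like cells in the vehicle library with 403 CPM. Epithelial-like cells held 43.1 CPM in the THC and 39.6 CPM in the vehicle library, close to the 37.3 CPM of free RNA. After each cell was thinned to 1000 UMIs, a Rel UMI was found in 40.5% of THC and 43.5% of vehicle B-like cells. The thinned share was 2.44% (0.06% to 12.9%) of THC and 1.82% (0.05% to 9.72%) of vehicle smooth muscle-like cells. Unthinned, the share was 75.7% of THC and 71.0% of vehicle B-like cells, and 2.44% of THC and 10.9% of vehicle smooth muscle-like cells. The unthinned THC smooth muscle-like share is 1 cell with 1 UMI. Median depths were 3106 UMIs in THC and 3133 in vehicle B-like cells, and 14367 in THC and 11736 in vehicle smooth muscle-like cells.

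**Figure D1:**
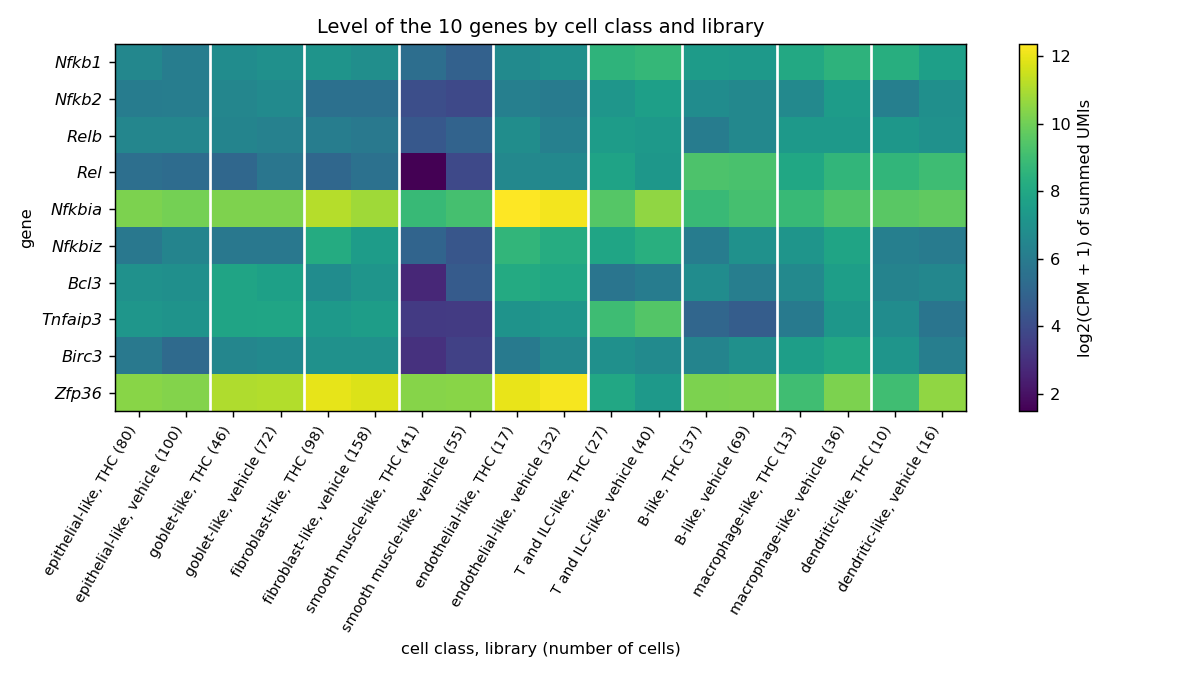
Level of the 10 genes, as log2(CPM + 1) of summed UMIs by the color scale, in 9 cell classes (THC column left of the vehicle column, number of cells in brackets; T and ILC-like is the T and innate lymphoid-like class). Nfkbia and Zfp36 form the bright rows and peak in endothelial-like and fibroblast-like cells, while Rel peaks in B-like cells.

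The inhibitor Nfkbia, which encodes IkappaBalpha, was highest in endothelial-like cells. The 17 THC cells of that class held 5296 CPM (4848 to 5775) and the 32 vehicle cells 4665 CPM (4362 to 4983). Of these cells, 13 THC and 25 vehicle cells formed a cluster led by Ccl21a, Mmrn1 and Lyve1. The other 4 THC and 7 vehicle cells formed a cluster led by Fabp4, Plvap and Flt1. Fibroblast-like cells were the highest of the 6 classes that reached 20 cells in both libraries, with 2297 CPM in THC and 1831 CPM in vehicle cells. Goblet-like cells held 1222 CPM in the THC and 1243 CPM in the vehicle library, and epithelial-like cells 1179 CPM in the THC and 1080 CPM in the vehicle library. B-like, smooth muscle-like and macrophage-like cells lay below the 784 CPM of free RNA in both libraries.

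Nfkbiz encodes IkappaBzeta, a nuclear protein that helps p50 dimers turn on a subset of inflammatory genes. It stood at 402 CPM in THC and 296 CPM in vehicle endothelial-like cells, and at 233 CPM in THC and 326 CPM in vehicle T and innate lymphoid-like cells. Fibroblast-like cells held 290.0 CPM in the THC and 179 CPM in the vehicle library. Among them, the cluster led by Has1, C3 and Pi16 held 553 CPM in THC and 292 CPM in vehicle cells. The cluster led by Igfbp3, Sfrp1 and Adamdec1 held 209 CPM in THC and 108 CPM in vehicle cells. Goblet-like cells, at 57.3 CPM in the THC and 55.8 CPM in the vehicle library, lay below the free RNA.

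Bcl3 encodes a nuclear IkappaB-like protein that binds p50 and p52. It was at 229 CPM in THC and 202 CPM in vehicle goblet-like cells, and at 125 CPM in THC and 118 CPM in vehicle epithelial-like cells. Endothelial-like cells held 278 CPM in the THC and 243 CPM in the vehicle library, from 27 THC and 46 vehicle UMIs. Their larger cluster, led by Ccl21a, Mmrn1 and Lyve1, held 181 CPM in THC and 178 CPM in vehicle cells, from 14 THC and 26 vehicle UMIs. The smooth muscle-like class held 5.4 CPM in the THC and 23.3 CPM in the vehicle library.

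Tnfaip3 encodes A20, which edits ubiquitin chains to shut the pathway off. It was highest in T and innate lymphoid-like cells, at 501 CPM in the THC library (380 to 648) and 710 CPM in the vehicle library (576 to 865). No other class of at least 20 cells had an interval that reached these. Goblet-like cells followed with 231 CPM in the THC and 235 CPM in the vehicle library. B-like cells held 33.0 CPM in the THC and 24.6 CPM in the vehicle library, so the lymphocyte classes differed in Tnfaip3 in the opposite way to Rel.

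Birc3 encodes the ubiquitin ligase cIAP2. It stood at 191 CPM in 13 THC and 260 CPM in 36 vehicle macrophage-like cells. Fibroblast-like cells held 127 CPM in both libraries, and smooth muscle-like cells 7.2 CPM in the THC and 10.9 CPM in the vehicle library.

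Zfp36 encodes tristetraprolin, which binds AU-rich elements of cytokine mRNAs and hastens their decay. Endothelial-like cells held 4184 CPM in the THC and 4739 CPM in the vehicle library, and fibroblast-like cells 3990 CPM in the THC and 3561 CPM in the vehicle library. T and innate lymphoid-like cells held only 259 CPM in the THC and 159 CPM in the vehicle library, below the 1035 CPM of free RNA. Within the smooth muscle-like class, the cluster led by Hhip and Actc1 held 3904 CPM in THC and 3540 CPM in vehicle cells, and the cluster led by Actg2, Des and Cnn1 held 761 CPM in THC and 731 CPM in vehicle cells. Over the 14 points, Zfp36 had a Pearson r of -0.52 with Nfkb1.

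**Figure D2:**
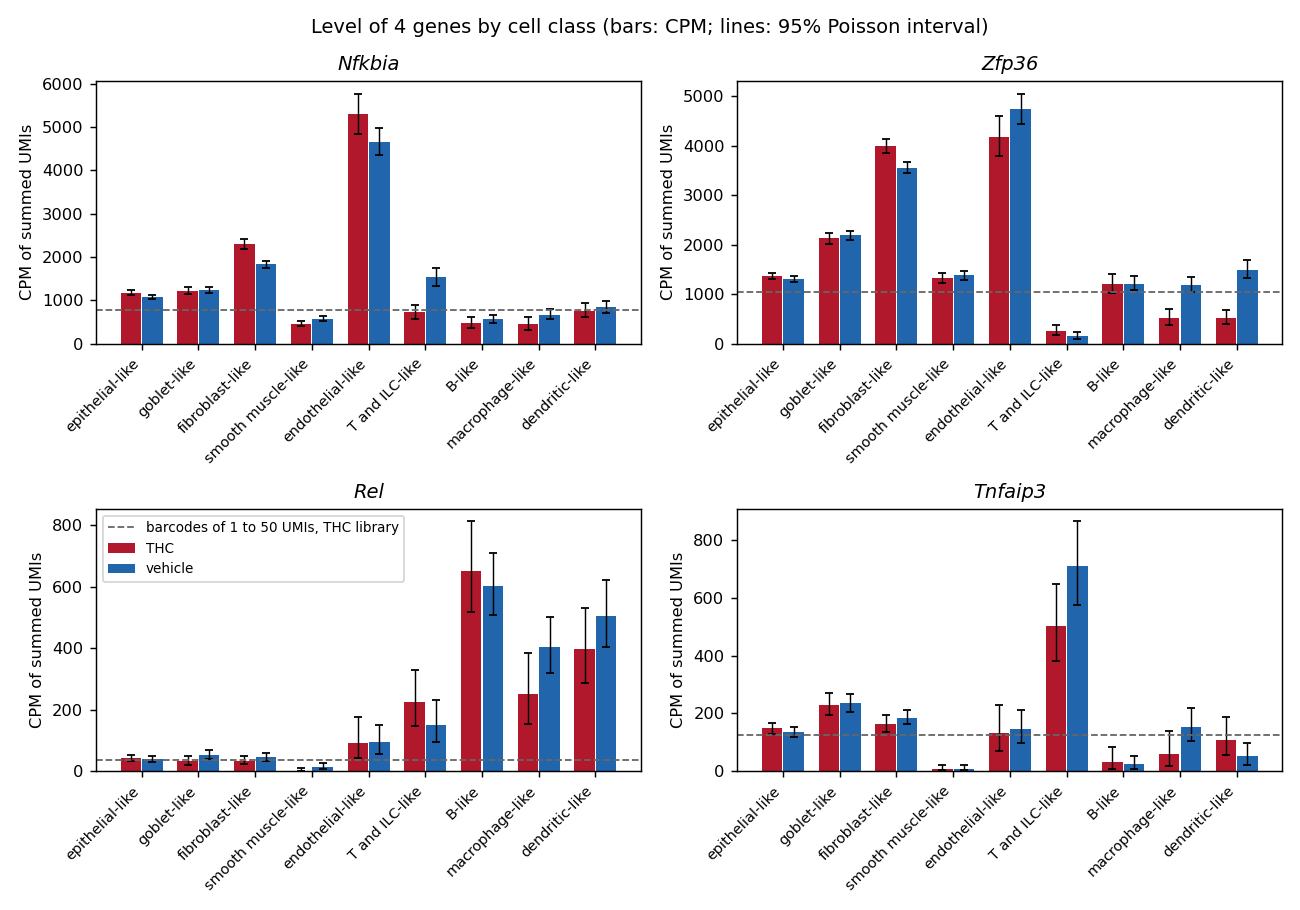
CPM of summed UMIs of Nfkbia, Zfp36, Rel and Tnfaip3 by cell class (THC bars left, vehicle bars right; lines are exact 95% Poisson intervals, the dashed line is the level in THC barcodes of 1 to 50 UMIs). Of the classes drawn, the highest bars are endothelial-like for Nfkbia and Zfp36 and B-like for Rel in both libraries. For Tnfaip3 they are T and innate lymphoid-like. The endothelial-like and fibroblast-like intervals of Zfp36 overlap in the THC library, and the B-like and dendritic-like intervals of Rel overlap in both libraries.

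Between the libraries, the epithelial-like levels of most members lay close together. The 10 members summed to 3220 CPM in THC and 3024 CPM in vehicle cells. Birc3 was the single member past 1.5-fold, with 92 UMIs or 57.4 CPM in THC and 59 UMIs or 37.1 CPM in vehicle cells, a log2 ratio of THC over vehicle of 0.63 (0.14 to 1.13). The median depth of an epithelial-like cell was 20161 UMIs for THC and 16141 UMIs for vehicle cells. With every cell thinned to 1000 UMIs the Birc3 ratio was -0.49. Only 5.0% of THC and 7.0% of vehicle cells then held a Birc3 UMI. The thinned ratio rested on fewer than 30 UMIs and has no interval, so it shows no direction. Under 6 further alternatives the Birc3 ratio stayed above 0 but missed 1.5-fold, so the call depends on the processing. As reported, that made 1 of 10 members higher and 0 of 10 lower, where 5.06% of the 8337 measured genes of the class were at least 1.5-fold higher and 7.52% were at least 1.5-fold lower. A gene counted as measured with 30 UMIs over both libraries in the class. The median log2 ratio was 0.10 over the members and -0.01 over all measured genes.

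Nfkbiz was the member with the lowest ratio in epithelial-like cells and lay just inside the threshold. It held 91 UMIs or 56.8 CPM in THC and 134 UMIs or 84.3 CPM in vehicle cells, a log2 ratio of -0.57 (-0.97 to -0.18) against the limit of 0.585 in size. The difference had the same direction in each epithelial-like cluster. The cluster led by Car1 and Krt20 held 60.2 CPM (43.4 to 81.4) in THC and 80.2 CPM (61.5 to 103) in vehicle cells. The cluster led by Muc3 and Krt36 held 55.4 CPM (37.1 to 79.6) in THC and 104 CPM (75.7 to 139) in vehicle cells. In each of these clusters the THC and vehicle intervals overlapped. The cycling cluster led by Ube2c and Top2a held 52.4 CPM in THC and 70.5 CPM in vehicle cells. All of these levels lay below the 119 CPM of free RNA, whose part in the difference was not tested. Nfkb1 had a log2 ratio of 0.39 (0.02 to 0.76) and Nfkbia of 0.13 (0.03 to 0.22), but neither direction held under every alternative. With cells of under 5% mitochondrial UMIs, which left 17 THC and 19 vehicle cells, Nfkb1 was at -0.89 and Nfkbia at -0.16. Nfkbia was also at -0.10 in thinned cells and at -0.06 as a mean of per-cell CPM. The intervals of Nfkb2, Relb, Rel, Bcl3, Tnfaip3 and Zfp36 included 0.

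In fibroblast-like cells Nfkbia and Nfkbiz were higher in the THC library. The 10 members summed to 7264 CPM in THC and 6289 CPM in vehicle cells. Nfkbiz held 220 UMIs or 290.0 CPM in THC cells and 208 UMIs or 179 CPM in vehicle cells, a log2 ratio of 0.69 (0.41 to 0.98). It was the only member past 1.5-fold. Here 1 of 10 members was higher and 0 of 10 lower, beside 7.42% of the 6845 measured genes that were higher and 6.69% that were lower by 1.5-fold. The median log2 ratio was 0.10 over the members and 0.03 over all measured genes.

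A single THC cell held 23.2% of the Nfkbiz UMIs of the THC fibroblast-like cells, and without the richest cell of each library the log2 ratio was 0.48. It was 0.15 when predicted doublets were kept and the cells were clustered again, which left 93 THC and 156 vehicle fibroblast-like cells. The direction differed between the 5 fibroblast-like clusters. Nfkbiz was higher in THC cells of the 3 largest, of which the cluster led by Bmp2, Procr and Nrg1 held 163 CPM in 14 THC and 96.0 CPM in 20 vehicle cells. The cluster led by Ces1d and Fibin went the other way, with 41.1 CPM (4.97 to 148) in 7 THC and 472 CPM (284 to 737) in 5 vehicle cells. The cluster led by Tnfsf13b and Ctgf held 0 UMIs in 6 THC and 3 UMIs in 13 vehicle cells.

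Nfkbia had a log2 ratio of 0.33 (0.24 to 0.42) and Zfp36 of 0.16 (0.10 to 0.23) in fibroblast-like cells. Nfkbia stood at 3110 CPM in THC and 1961 CPM in vehicle cells of the Has1 cluster, at 2381 CPM in THC and 2047 CPM in vehicle cells of the Adamdec1 cluster, and at 1533 CPM in THC and 1504 CPM in vehicle cells of the Bmp2 cluster. The small clusters were split, at 1105 CPM in THC and 420.5 CPM in vehicle cells of the Ctgf cluster but at 349 CPM (203 to 559) in THC and 1938 CPM (1532 to 2419) in vehicle cells of the Ces1d cluster. Zfp36 was at 5452 CPM in THC and 4466 CPM in vehicle cells of the Adamdec1 cluster but at 2631 CPM in THC and 3856 CPM in vehicle cells of the Bmp2 cluster, and at 1191 CPM in THC and 2882 CPM in vehicle cells of the Ces1d cluster. Intervals of the other 7 members included 0, and the log2 ratios of Tnfaip3, Rel, Bcl3 and Birc3 lay between -0.41 and -0.01.

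**Figure D3:**
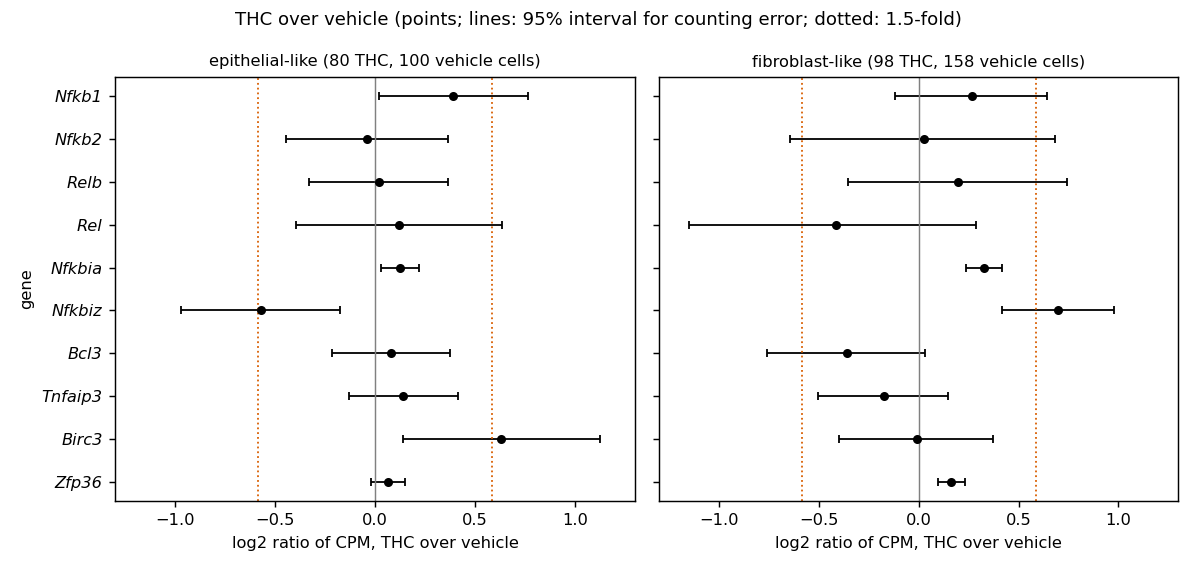
Log2 ratio of CPM, THC over vehicle, of the 10 genes in epithelial-like (left) and fibroblast-like cells (right); lines are 95% intervals for counting error and dotted lines mark 1.5-fold. Birc3 at 0.63 in epithelial-like cells and Nfkbiz at 0.69 in fibroblast-like cells are the points beyond the dotted lines, and Nfkbiz at -0.57 in epithelial-like cells lies just inside.

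Nfkbia, Nfkbiz and Zfp36 are also known to rise while tissue is dissociated, so genes of that response are given beside them. In fibroblast-like cells, 10 immediate early genes such as Fos and Egr1 summed to 39941 CPM in THC and 33836 CPM in vehicle cells, and 9 of the 10 had a log2 ratio above 0, with a median of 0.20. In epithelial-like cells they summed to 14273 CPM in THC and 13911 CPM in vehicle cells, with a median of 0.04. Heat shock genes went the other way, at 4783 CPM in THC and 7456 CPM in vehicle fibroblast-like cells and at 2443 CPM in THC and 3459 CPM in vehicle epithelial-like cells. The part of dissociation in the ratios of the members was not tested. Egr1 was also the gene whose levels over the 14 points were most like those of Zfp36 among 6382 genes compared, with a Pearson r of 0.95.

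In T and innate lymphoid-like cells, Nfkbia was lower in the THC library. It held 84 UMIs or 726 CPM in 27 THC cells and 211 UMIs or 1528 CPM in 40 vehicle cells, a log2 ratio of -1.07 (-1.46 to -0.70). A single vehicle cell held 30.8% of the vehicle UMIs and a single THC cell 25.0% of the THC UMIs. Without these cells the log2 ratio was -0.96, and as a mean of the CPM of single cells it was -0.65. The THC level lay below the 784 CPM that Nfkbia had in free RNA. In this class the 10 immediate early genes summed to 8284 CPM in THC and 6871 CPM in vehicle cells. The heat shock genes summed to 2108 CPM in THC and 1658 CPM in vehicle cells. The part of free RNA or dissociation in the Nfkbia ratio was not tested. Tnfaip3 had a log2 ratio of -0.50 (-0.996 to -0.019) in this class. The intervals of the other 6 measured members included 0.

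In the remaining classes of at least 20 cells in each library the members lay close together or rested on few UMIs. The goblet-like cells had 10 measured members with log2 ratios between -0.67 for Rel and 0.18 for Bcl3, and each interval included 0. Nfkbia in smooth muscle-like cells had 457 CPM in the THC against 577 CPM in the vehicle library. Its log2 ratio of -0.34 (-0.57 to -0.10) ranged from -1.71 to 0.12 over the processing alternatives. In B-like cells no interval excluded 0. The macrophage-like and dendritic-like classes had under 20 THC cells, and Zfp36 stood there at 525 CPM in 13 THC and 1188 CPM in 36 vehicle macrophage-like cells, and at 522 CPM in 10 THC and 1500 CPM in 16 vehicle dendritic-like cells. The dendritic-like class was also led by Il1b and Il1r2, which other myeloid cells share.

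**Figure D4:**
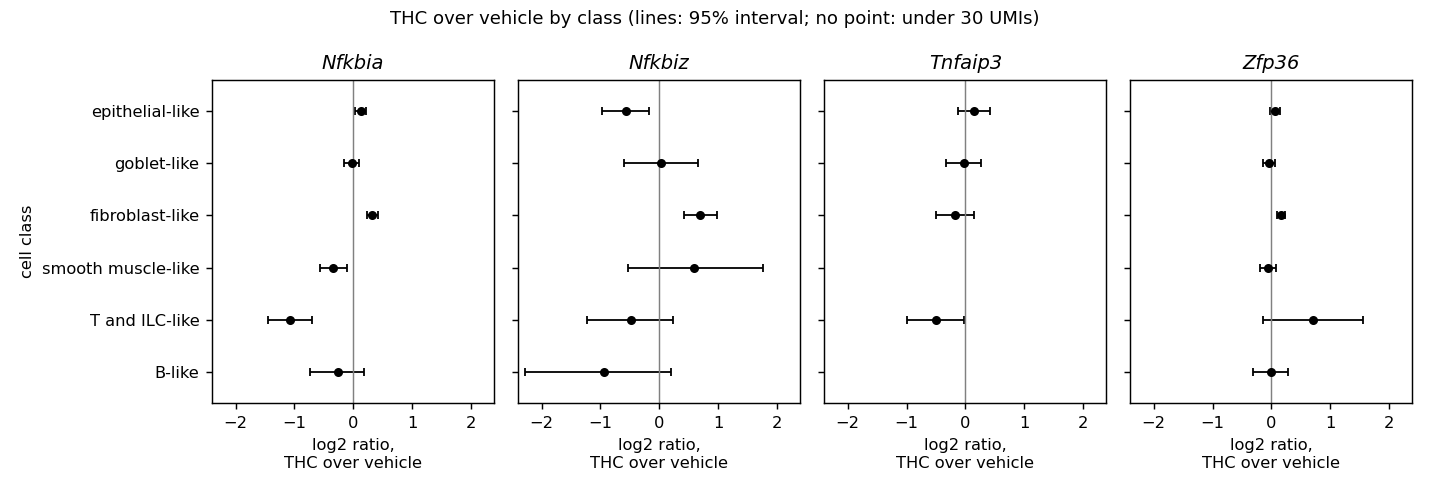
Log2 ratio of CPM, THC over vehicle, of Nfkbia, Nfkbiz, Tnfaip3 and Zfp36 in 6 cell classes; lines are 95% intervals for counting error, and a class with under 30 UMIs of a gene has no point. Nfkbia lies at 0.33 in fibroblast-like and at -1.07 in T and innate lymphoid-like cells, and Nfkbiz at 0.69 in fibroblast-like and at -0.57 in epithelial-like cells.

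Over all kept cells, 8 of the 10 members had log2 ratios between -0.11 and 0.05. Rel stood at 68.3 CPM in the THC against 94.99 CPM in the vehicle library, and its log2 ratio was -0.48 (-0.68 to -0.27). Within the B-like class, where Rel was highest, its log2 ratio was 0.11 (-0.30 to 0.52). B-like cells were 9.37% of THC and 10.99% of vehicle cells, and macrophage-like cells 3.29% of THC and 5.73% of vehicle cells, and the part of these shares in the Rel value was not tested. Nfkb2 stood at 60.8 CPM in the THC against 72.4 CPM in the vehicle library, and its log2 ratio was -0.25 (-0.48 to -0.03).

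The members were set beside 63 other genes of the pathway, which are receptors, adaptors and kinases, further subunits, inhibitors and target genes. In epithelial-like cells 46 were measured, and their median log2 ratio was -0.02. In the THC library 2 of these were at least 1.5-fold higher and 6 at least 1.5-fold lower, beside 5.06% higher and 7.52% lower of all measured genes. Target genes had no common direction, with 5 of 9 measured above 0 and a median of 0.00. Icam1, an adhesion molecule for leukocytes and a textbook target, had 17 UMIs in THC and 51 UMIs in vehicle cells, a log2 ratio of -1.60 (-2.48 to -0.78). Gadd45b, a target that limits JNK signaling, had 51.8 CPM in THC and 92.5 CPM in vehicle cells. The target Bcl2l1, which encodes the survival protein Bcl-xL, was higher, with 28 UMIs in THC and 17 UMIs in vehicle cells and a log2 ratio of 0.71 (-0.21 to 1.67). The kinase Irak1 was the other higher gene, with 44.3 CPM in THC and 28.9 CPM in vehicle cells.

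In fibroblast-like cells 41 of the 63 were measured, 4 higher and 5 lower, beside 7.42% higher and 6.69% lower of all measured genes. The median log2 ratio was -0.15 over the 41 and 0.03 over all measured genes. Tnip1, which encodes a partner of A20, had 57 UMIs in THC and 42 UMIs in vehicle cells, a log2 ratio of 1.05 (0.45 to 1.67). Of 7 measured receptors 3 were at least 1.5-fold lower. The endotoxin receptor Tlr4 had 14.5 CPM in THC and 31.9 CPM in vehicle cells, a log2 ratio of -1.14 (-2.26 to -0.13). The interleukin-1 receptor Il1r1 had 31.6 CPM in THC and 55.1 CPM in vehicle cells, a log2 ratio of -0.80 (-1.54 to -0.10). The TNF receptor Tnfrsf1b had 8 UMIs in THC and 24 UMIs in vehicle cells, and its interval (-2.34 to 0.23) included 0. None of the 11 measured target genes was past 1.5-fold in either direction in this class.

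Other genes were ranked by how alike their levels over the 14 points were to those of a member. Rel was most like Cerk (r of 0.96), Lyn (0.94), a kinase of B cell receptor signaling, and Cyth1 (0.94). Nfkb1 was most like the MHC class I gene H2-K1 (0.96), Nr4a3 (0.92) and H2-D1 (0.92). Nfkb2 was most like Nfkbib (0.94), which encodes IkappaBbeta, Zc3h12a (0.93), an RNase that degrades cytokine mRNAs, and Relb (0.93). The highest r of Nfkbia was 0.90 with Sertad2, that of Nfkbiz 0.87 with Tpm3, that of Tnfaip3 0.89 with Ptp4a1, that of Bcl3 0.87 with Zc3h7a and that of Birc3 0.92 with Kdm6b.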

How the data were processed

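Per the file headers, the deposited matrices hold raw UMI counts per gene and barcode that the authors made with Cell Ranger 3.0.2. The sources used here do not give the genome build. The THC matrix held 737280 barcodes and the vehicle matrix 973, the lowest with 502 UMIs, so the vehicle barcodes had been filtered before deposit.

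Barcodes needed 1000 UMIs, 200 genes and under 10% mitochondrial UMIs, a limit that removed 232 THC and 281 vehicle barcodes. Scrublet in scanpy 1.11.5 marked 1 THC and 2 vehicle doublets, which were removed, so few that doublets may remain. Cells were scaled to 10000, log-transformed and clustered together on 2828 variable genes without the members and listed genes (30 principal components, 15 neighbours, Leiden resolution 1), giving 22 clusters. Clusters took the name of the class, out of 20 marker lists, with the largest share of its markers counted and at least 3 of them. That way of naming was settled with the data in view. One shallow cluster of 3 THC and 23 vehicle cells stayed unnamed.

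CPM carry exact Poisson 95% intervals and log2 ratios exact conditional Poisson intervals. The ratio intervals were checked on simulated Poisson counts only, which cannot show their coverage for counts that vary more. Such intervals leave out variation between mice and between cells. Alternatives were UMI and mitochondrial limits, thinning, weight of single cells, clustering, doublets, cluster mix, scaling, the measured minimum and the fold. Named beside the members are up to 4 highest and 4 lowest pathway genes past 1.5-fold, of which a part is printed, and the 3 genes most alike by r of log2(CPM + 10) among genes with 200 UMIs. The members and lists were chosen with earlier results of these data known.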

Additional observations from a re-analysis of the deposited data

Results flagged for a closer look

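Some genes lay in opposite directions in different cell classes, with intervals for counting error that excluded 0 in each. For Nfkbia the log2 ratio of THC over vehicle was 1.20 larger in epithelial-like than in T and innate lymphoid-like cells and 0.46 larger in epithelial-like than in smooth muscle-like cells. It was 1.40 larger in fibroblast-like than in T and innate lymphoid-like cells and 0.66 larger in fibroblast-like than in smooth muscle-like cells. For Nfkbiz it was 1.26 larger in fibroblast-like than in epithelial-like cells. With 1 library per group these differences were not tested. The direction of Nfkbia did not hold under every alternative in epithelial-like cells, where it ranged between -0.16 and 0.14, or in smooth muscle-like cells, where it ranged between -1.71 and 0.12.

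Barcodes past the mitochondrial limit, which no comparison used, also held the 10 genes. The members summed to 3627 CPM of non-mitochondrial UMIs in 232 such THC barcodes and to 3877 CPM in 281 such vehicle barcodes. The same sums in the kept cells were 4307 CPM in the THC and 4370 CPM in the vehicle library. Zfp36 stood at 1129 CPM in these THC and 1490 CPM in these vehicle barcodes, against 2119 CPM in kept THC and 2146 CPM in kept vehicle cells. Nfkbiz stood at 214 CPM in these THC and 174 CPM in these vehicle barcodes, against 115 CPM in kept THC and 119 CPM in kept vehicle cells.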

How the results depend on the processing

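Of 570 values of single members under alternatives, 504 lay inside the interval of the reported value and 63 outside it, and in 3 a member past 1.5-fold changed sign. These 3 came with cells thinned to 1000 UMIs, where the log2 ratio was -0.10 for Bcl3 in B-like, -0.49 for Birc3 in epithelial-like and 0.65 for Rel in goblet-like cells. Few cells then held a UMI of the gene, 5.41% of THC and 5.80% of vehicle cells for Bcl3. The shares were 5.0% of THC and 7.0% of vehicle cells for Birc3, and 4.35% of THC and 2.78% of vehicle cells for Rel. Each ratio rested on fewer UMIs than the measured minimum of 30 and has no interval, so these sign changes show no direction.

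The count of members 1.5-fold higher in epithelial-like cells, 1 as reported, was 0 with under 20% mitochondrial UMIs, thinned cells, the mean of per-cell CPM, Leiden resolution 0.5, doublets kept, the same mix of clusters and a 2-fold limit. The count lower, 0 as reported, was 1 with under 5% mitochondrial UMIs, without the richest cell, at Leiden resolution 0.5 and with doublets kept, and 2 with the mean of per-cell CPM. Nfkbiz stayed below 0 under every alternative run, between -1.36 and -0.51, while Birc3 ranged between -0.49 and 1.07, Nfkb1 between -0.89 and 0.74 and Nfkbia between -0.16 and 0.14. In fibroblast-like cells the count higher, 1 as reported, was 0 with a 500 UMI minimum, under 20% mitochondrial UMIs, without the richest cell, with the mean of per-cell CPM, doublets kept and a 2-fold limit, and the count lower was 1 with the mean of per-cell CPM. Nfkbiz stayed above 0 there, between 0.14 and 0.88, and Nfkbia between 0.16 and 0.49. Thinned to 1000 UMIs, the median was -0.21 over 2 measured epithelial-like members and 0.52 over 6 measured fibroblast-like members. The cause of these shifts was not tested. Under 5% mitochondrial UMIs the epithelial-like class kept 17 THC and 19 vehicle cells. Nfkbia in T and innate lymphoid-like cells ranged between -1.32 and -0.65. No paired analysis was possible because each group is 1 library. Ratios of Rel, Nfkb2 and Relb rest on at most 147 UMIs per class and library.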
